A study of Homo sapiens with 4 samples.

Results

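The genes described here encode 9 enzymes of serine synthesis and folate one-carbon metabolism, measured in U87 cells, an established human glioblastoma line. They are PHGDH, PSAT1, PSPH, SHMT1, SHMT2, MTHFD1, MTHFD2, MTHFD1L and ALDH1L2, given by symbol and found through the transcript identifiers of the deposited table. All 9 were present, out of 22031 genes with a summed value, and they held 107 of the 100809 transcript rows. In both groups, U87 cells obtained from ATCC were transfected with 50 nM of a single-stranded RNA by Lipofectamine 2000 and kept for 48 h. In 2 libraries, called mimic 1 and mimic 2, the RNA was a mimic of tRF-3009a, which is cut from the 3′ part of a transfer RNA. In the other 2, control 1 and control 2, it was ssGL2, 1 strand of an siRNA against luciferase. Polyadenylated RNA was sequenced in pairs. The numbers are replicate numbers in the labels, which do not say whether they mark separate cultures, so p-values measure the spread between these libraries only.

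Serine is made from the glycolytic intermediate 3-phosphoglycerate in 3 steps, by PHGDH, PSAT1 and PSPH in that order. Serine hydroxymethyltransferases then pass a carbon from serine to tetrahydrofolate and release glycine. In mitochondria this is done by SHMT2, after which MTHFD2 oxidises the carried carbon, MTHFD1L releases it as formate and ALDH1L2 oxidises it to carbon dioxide. In the cytosol SHMT1 does the same exchange, and MTHFD1 takes formate back onto folate for the making of purines and thymidylate. Serine synthesis and mitochondrial folate enzymes are known targets of ATF4, the transcription factor of the amino acid and stress response, and the pathway is often active in tumour cells.

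Depth was 28860788 to 33848402 recovered reads per library. Libraries that shared a number were more alike than libraries that shared a treatment, with Pearson's r across 16535 genes of 0.984 and 0.987 against 0.942 and 0.941. The line matched its label in that CDKN2A, deleted in U87, lay between 0 and 11.2 and MTAP, deleted with it, between 23.9 and 41.5, while the mesenchymal gene VIM, at 276546 and 249907 in number 1 and 126391 and 121239 in number 2, was abundant throughout. The immune gene PTPRC reached at most 6.72, whereas CD68, a lysosomal gene also used as a macrophage marker, lay between 7238 and 10220. Of the glial markers, GFAP was at 29.7 or less in every library. Further markers are given in the closing section.

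Before the values, a limit on MTHFD1 has to be stated. Of the 135 annotated transcripts of these genes in GENCODE v29, 107 had a row. MTHFD1-201, the annotated form of 935 codons, had none, and the values of MTHFD1 came from 10 of its 16 annotated transcripts. The largest mean among them belonged to MTHFD1-215, a partial form of 571 nt. In the table, 10166 rows, with 3.25% to 3.56% of each library's values, carried an identifier outside that annotation and were not analysed here. The level of MTHFD1 below is thus the level of those 10 transcripts and may understate the gene. Per kilobase, where short forms weigh more, it may also overstate it. For the other 8 genes the longest transcript without a row was 1077 nt, in SHMT1, and was noncoding.

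Normalized values, that is, estimated reads divided by a size factor for each library, were compared first between treatments and then between numbers. Of the 9 genes, SHMT1 was lower in both mimic libraries than in both controls. The other 8 differed between mimic and control of the same number by between -0.21 and 0.30 on the log2(value + 1) scale. Between numbers, 7 genes were higher in number 2 at an adjusted p under 0.05 by limma, against 26% of 16535 genes tested. Their rise ran from 2.16-fold for MTHFD1L to 10.5-fold for ALDH1L2. MTHFD1 was lower, as were 24.2% of genes tested, and SHMT1 did not pass the test. Standard errors and p-values of the comparison between numbers rest on the spread between mimic and control of the same number. They do not measure how separate cultures would vary.

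**Figure D1:**
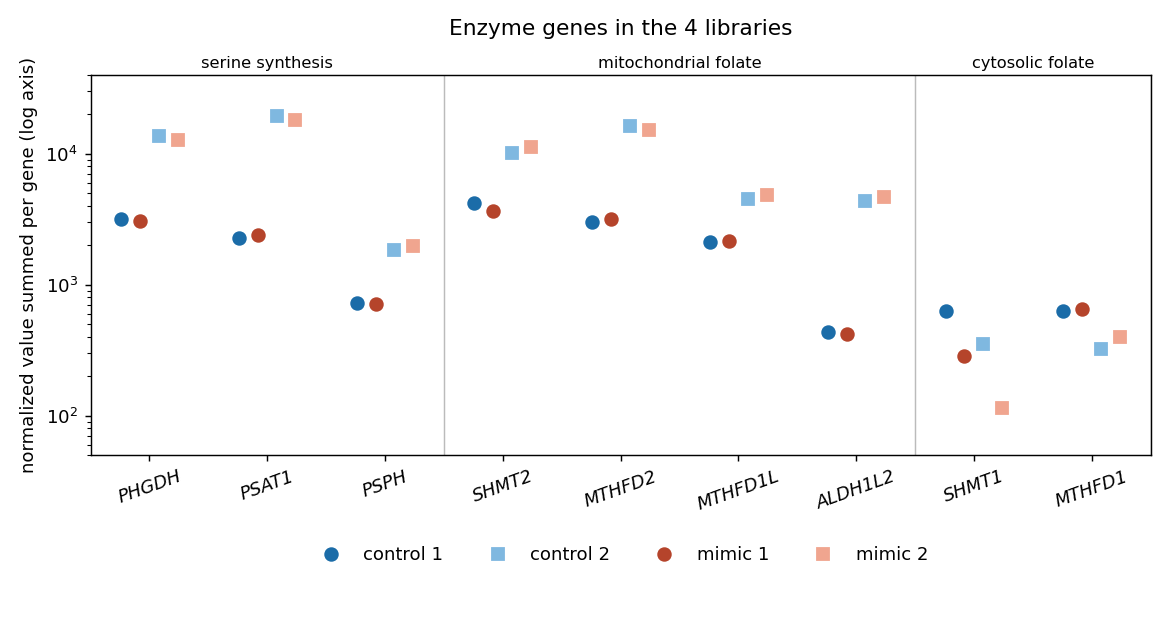
Normalized value summed per gene (log axis) of the 9 enzyme genes, 1 point per library; circles are libraries numbered 1, squares libraries numbered 2, blue the control and red the mimic. Squares lie above circles for the 7 genes on the left, and SHMT1 is the gene whose mimic points both lie below its control points; MTHFD1 holds 10 of its 16 annotated transcripts.

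The first step of serine synthesis is set by PHGDH, the dehydrogenase of 3-phosphoglycerate (ENSG00000092621, chromosome 1, 119648411 to 119744226 of GRCh38). Its normalized value was 3198 and 13756 in controls 1 and 2, and 3066 and 12781 in mimics 1 and 2. Both libraries numbered 2 were higher, by 2.08 ± 0.08 (SE, log2, adjusted p of 1.9e-07 by limma), or 4.24-fold. PSAT1, the aminotransferase of the second step (ENSG00000135069, chromosome 9, 78297143 to 78330093), moved most among the 3. The values were 2264 and 19518 in controls 1 and 2, and 2393 and 18080 in mimics 1 and 2. Its libraries numbered 2 lay far above those numbered 1 under either treatment. The difference was 3.01 ± 0.08 (SE, log2, adjusted p of 3.7e-08 by limma), or 8.07-fold. PSPH, the phosphatase that releases serine (ENSG00000146733, chromosome 7, 56011051 to 56051604), was the lowest of the 3, also per kilobase. PSPH stood at 726 and 1843 in controls 1 and 2, and 710.0 and 1978 in mimics 1 and 2. Number 2 exceeded number 1 by 1.41 ± 0.09 (SE, log2, adjusted p of 3.6e-06 by limma), or 2.66-fold. For none of the 3 did the treatment groups separate, and mimic and control of the same number differed by between -0.11 and 0.10 (log2).

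Among the mitochondrial enzymes, SHMT2, which moves a carbon from serine to folate (ENSG00000182199, chromosome 12, 57229327 to 57234935), takes the first step. SHMT2 measured 4228 and 10065 in controls 1 and 2, and 3659 and 11208 in mimics 1 and 2. In number 2 it was higher by 1.43 ± 0.09 (SE, log2, adjusted p of 4.2e-06 by limma), or 2.7-fold. MTHFD2, the dehydrogenase and cyclohydrolase of the next steps (ENSG00000065911, chromosome 2, 74198562 to 74217565), ranked the 4 libraries in the same order as PSAT1. MTHFD2 had values of 3025 and 16239 in controls 1 and 2, and 3180 and 15234 in mimics 1 and 2. It was higher in number 2 by 2.34 ± 0.08 (SE, log2, adjusted p of 1.0e-07 by limma), or 5.07-fold. MTHFD1L, the formate-releasing synthetase (ENSG00000120254, chromosome 6, 150865549 to 151101887), was higher in number 2 by the smallest factor of the 7. MTHFD1L was found at 2133 and 4469 in controls 1 and 2, and 2155 and 4805 in mimics 1 and 2. The rise was 1.11 ± 0.08 (SE, log2, adjusted p of 6.5e-06 by limma), or 2.16-fold. ALDH1L2, which oxidises formyl-folate and yields NADPH (ENSG00000136010, chromosome 12, 105019784 to 105084577), showed the largest. ALDH1L2 lay at 433 and 4345 in controls 1 and 2, and 421 and 4661 in mimics 1 and 2. The gene rose by 3.40 ± 0.09 (SE, log2, adjusted p of 3.7e-08 by limma), or 10.5-fold. All 4 were higher in number 2 by limma, against 26% of all genes tested, and their treatment groups overlapped.

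On the cytosolic side neither gene was higher in number 2. MTHFD1 was at 634 and 322 in controls 1 and 2, and 653 and 395 in mimics 1 and 2. It fell in both libraries numbered 2, by 0.85 ± 0.13 (SE, log2, adjusted p of 0.00063 by limma), or 1.80-fold. This is a statement on the 10 transcripts counted for MTHFD1 (ENSG00000100714, chromosome 14, 64388031 to 64463457). Of these, the partial form MTHFD1-215 was at 253 and 39.2 in controls 1 and 2, and 238 and 79.3 in mimics 1 and 2. MTHFD1-202, with 1020 codons, differed between numbers by -0.42 ± 0.31 and MTHFD1-210 by 0.20 ± 0.60 (SE, log2). None of the MTHFD1 transcripts was called. SHMT1, the cytosolic hydroxymethyltransferase, was at 628 and 353 in controls 1 and 2, and 283 and 114 in mimics 1 and 2. In SHMT1 (ENSG00000176974, chromosome 17, 18327860 to 18363563, minus strand) the controls were the higher libraries within each number, and the numbers overlapped. Its difference between numbers was -1.07 ± 0.49 (SE, log2) with an adjusted p of 0.101 by limma, so it was not called.

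Called genes were common between numbers, so the members' counts need that background. By limma at an adjusted p under 0.05, 7 of the 9 were higher in number 2, against 26% of 16535 genes tested, and 1 was lower, against 24.2%. Their median difference was 1.43 (log2), against 0.01 over all genes tested. All 9 passed the filter on low values, a mean of at least 10. Leaving out control 2 lowered the number of genes called from 8301 to 5430, and leaving out mimic 2 to 5163, while each of the 8 member calls held without any 1 library. Without control 2, the SHMT1 difference between numbers was -1.88, but number 2 then held mimic 2 alone, so treatment entered it. Within a treatment, SHMT1 in number 2 minus number 1 was -0.83 in the control and -1.31 in the mimic.

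**Figure D2:**
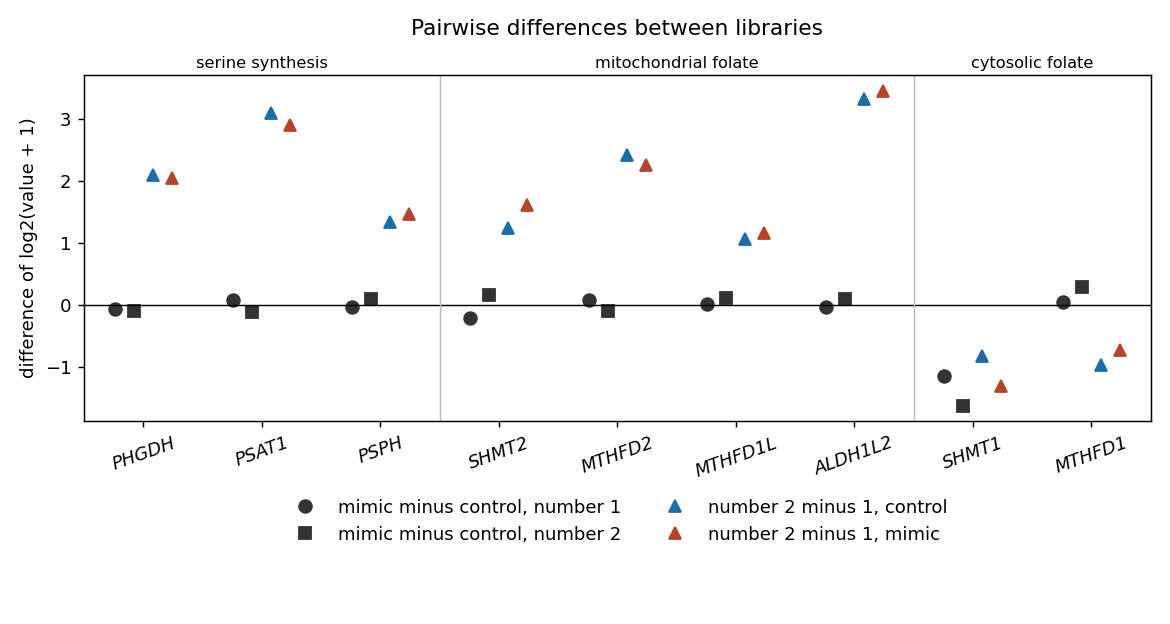
Difference of log2(value + 1) between pairs of libraries for each gene; black symbols are mimic minus control within number 1 (circle) and number 2 (square), triangles are number 2 minus number 1 within the control (blue) and the mimic (red). Black symbols lie near 0 except for SHMT1 at -1.15 and -1.63, and triangles range from 3.47 for ALDH1L2 to -1.31 for SHMT1.

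Levels of different genes were compared only per kilobase of transcript. In control 1 the highest was SHMT2 at 1976 per kb, ahead of PHGDH at 1874, and ALDH1L2 was the lowest at 67.5. In control 2 PSAT1 led with 9020 per kb, ahead of PHGDH at 8408 and MTHFD2 at 7932, and SHMT1 was the lowest at 188. The mimic libraries gave PHGDH 1909, SHMT2 1643 and MTHFD2 1642 per kb in number 1, and PSAT1 8359 and PHGDH 8244 in number 2. SHMT2 was thus 1st or 2nd in libraries numbered 1 and 4th in both numbered 2, while PSAT1 moved from 4th to 1st. Neighbours at the top of each order lay closer than the libraries of a treatment lay to each other. MTHFD1L stood 5th in all 4.

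The mitochondrial enzymes summed per kilobase, divided by SHMT1 and MTHFD1, gave a log2 ratio of 2.03 and 5.07 in controls 1 and 2, and 2.14 and 5.11 in mimics 1 and 2. Number 2 exceeded number 1 by 3.01, an 8.04-fold difference, with an exact permutation p of 0.33, two-sided, the smallest that 2 against 2 libraries can give. Mimic exceeded control by 0.07, with an exact permutation p of 0.67. Per kilobase the partial MTHFD1-215, of 571 nt, weighs heavily in MTHFD1 and so in this ratio. In control 1 MTHFD1 was at 748 and SHMT1 at 336 per kb, against summed values of 634 and 628. In control 2 they were at 268 and 188 per kb, against 322 and 353. Since MTHFD1 was counted in part, the ratio was also taken without it, a choice made after the data were seen. Mimic then exceeded control by 1.18, with 3.72 and 6.35 in controls 1 and 2, and 4.58 and 7.87 in mimics 1 and 2. The exact permutation p was again 0.67. With MTHFD1 kept, the treatment difference was 0.41 without division by length and 0.44 with the mean of log2 values. Its size thus varied with how the ratio was formed, while the difference between numbers lay between 2.73 and 3.21 over the same choices and with SHMT2 over SHMT1 alone.

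Treatment was the study's own comparison. It was fitted here without a term for the number, so the spread between numbers entered its errors and few differences could pass. At the gene level it gave no call. By limma 0% of 16535 genes passed an adjusted p under 0.05 and 26 had an unadjusted p under 0.05. Fits by edgeR and DESeq2 on recovered reads, also without a term for the number, called 0 as well. SHMT1 was lower in both mimic libraries but did not pass that test, with a difference of -1.39 ± 0.59 (SE, log2), an unadjusted p of 0.0723 and an adjusted p of 1.00 by limma. With the number as a block SHMT1 was called, but the labels do not say that a number marks a shared culture (closing section). It was the 1 gene of the 9 whose groups did not overlap with the mimic lower, against 6.21% of all genes tested. It was also the 1 of 9 that was lower by at least 1 (log2) within both numbers, against 0.2%. Both shares describe the values that set SHMT1 apart and are not a test of it. For the other 8 the difference lay between -0.08 and 0.17 with standard errors of 0.47 to 1.65, which include the spread between numbers. The median over the 9 was -0.01, the same as over all genes tested.

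Most of the SHMT1 difference lay in 1 of its transcripts. SHMT1-201, the form with 483 codons in 12 exons and 2464 nt, stood at 273 and 214 in controls 1 and 2, against 4.50 and 1.91 in mimics 1 and 2. These correspond to 263, 191, 5 and 2 recovered reads. As a share of the SHMT1 reads, SHMT1-201 made up 43.5% in control 1 (95% Wilson interval 39.6% to 47.5%) and 60.6% in control 2 (55.1% to 65.9%). In mimic 1 it made up 1.59% (0.682% to 3.67%) and in mimic 2 1.68% (0.462% to 5.92%). Both controls were far above both mimic libraries, and the shares of the mimic libraries overlapped within their intervals. Control over mimic was 60.7-fold in number 1 (95% interval 25.7 to 189) and 113-fold in number 2 (30.8 to 937). These intervals cover counting error only, not the way kallisto divided reads among overlapping transcripts.

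By limma the difference of SHMT1-201 was -5.92 ± 0.57 (SE, log2), with an unadjusted p of 0.00028 and an adjusted p of 1.00 over 63708 transcripts, of which 0% were called and 1032 had an unadjusted p under 0.05. The transcript was picked out after its values were seen and passed the minimum mean through the controls alone, so its p is a description. Among 32431 transcripts with a mean of at least 50, 25, or 0.0771%, were lower by at least 5 (log2) within both numbers. Another 20, or 0.0617%, were higher by as much, so differences of this size occurred in both directions. Other forms of their genes were not looked at. Leaving out any 1 library kept the difference between -6.38 and -5.47, which follows from the values that picked it and is no further support.

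The other main form behaved differently. SHMT1-203, with 444 codons in 11 exons and 1656 nt, was at 305 and 91.9 in controls 1 and 2, and 225 and 82.0 in mimics 1 and 2. It fell between numbers, by 1.58 ± 0.24 (SE, log2, adjusted p of 0.0391 by limma), and its difference between treatments was -0.30 ± 0.82 (adjusted p of 1.00 by limma). With SHMT1-201 left out, the sum of SHMT1 was 355 and 139 in controls 1 and 2, and 278 and 112 in mimics 1 and 2, a difference between mimic and control of -0.35 in number 1 and -0.31 in number 2. These groups overlapped. No SHMT1 transcript rose in both mimic libraries by an amount near the loss of SHMT1-201: SHMT1-207, the form that was higher in both mimic libraries, had 0 in both controls, 2.70 in mimic 1 and 11.4 in mimic 2.

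**Figure D3:**
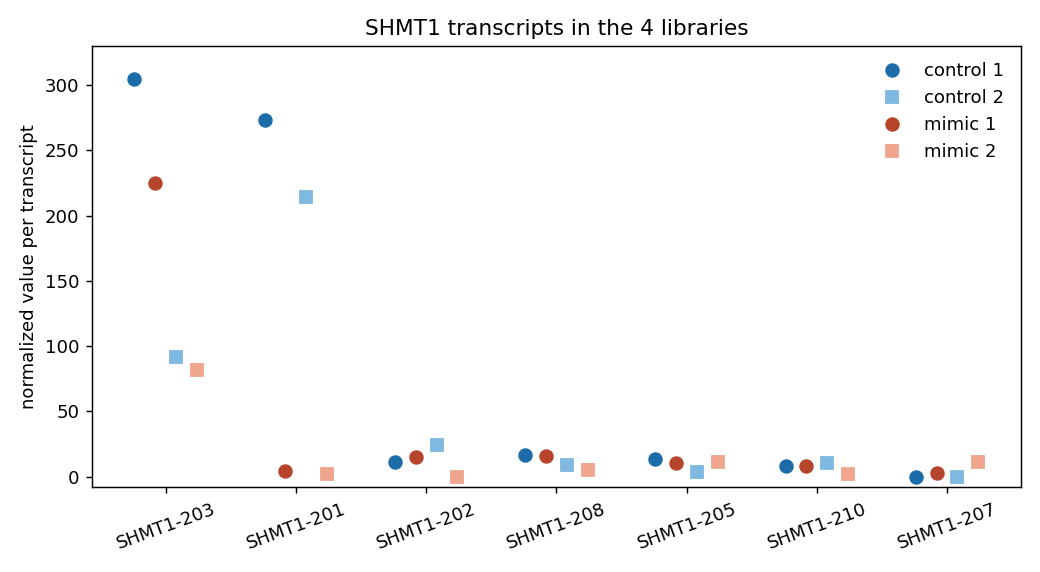
Normalized value per transcript for the 7 SHMT1 transcripts with a row, 1 point per library. SHMT1-201 stands at 273 and 214 in the controls and at 4.50 and 1.91 in the mimic libraries, whereas SHMT1-203 separates by number, at 305 and 225 against 91.9 and 82.0.

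The forms differ in exon 8 of SHMT1-201, which SHMT1-203 skips, at the 3′ end, where SHMT1-203 stops 655 nt earlier, and at the 5′ end, where it starts 36 nt later. The exon has 117 nt, which is 39 codons, and lies within the coding sequence at chr17:18335559-18335675 of GRCh38 on the minus strand (GENCODE v29). It is printed because reads that cross it separate SHMT1-201 from SHMT1-203 within the coding sequence. SHMT1-202, SHMT1-205 and SHMT1-207 also carry this exon, so it does not mark SHMT1-201 alone. The transcript sequence runs 5′ to 3′ with the exon in capitals and 15 nt of its neighbours on each side, and the second line is the junction that SHMT1-203 forms instead.
SHMT1-201: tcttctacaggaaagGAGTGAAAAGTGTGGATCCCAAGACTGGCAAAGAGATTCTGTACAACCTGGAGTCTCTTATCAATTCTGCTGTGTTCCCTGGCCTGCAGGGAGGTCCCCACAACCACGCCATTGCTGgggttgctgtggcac
SHMT1-203: tcttctacaggaaaggggttgctgtggcac
Reads at this exon alone were not analysed here. SMCR8 on the opposite strand overlaps SHMT1 by 196 nt. It lay at 1074 and 1567 in controls 1 and 2, and 953 and 1448 in mimics 1 and 2. The kit marks strand, but whether the authors' counting used it is not given in the sources used here.

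**Figure D4:**
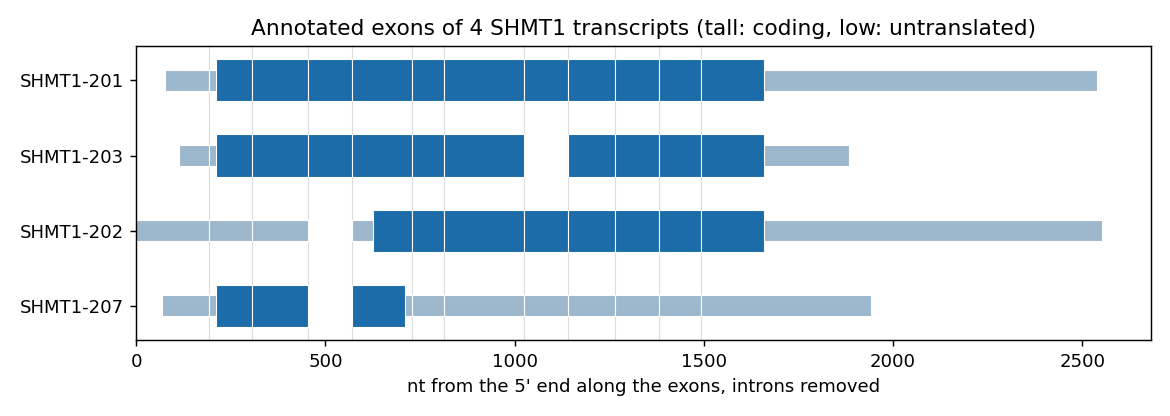
Exons of 4 annotated SHMT1 transcripts drawn to scale with introns removed, in nt from the 5′ end of the joined exons; tall blocks are coding, low blocks untranslated. SHMT1-203 has a gap of 117 nt where SHMT1-201 has exon 8, and a 3′ end that stops 655 nt earlier.

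Transcripts of the 9 genes were tested against a background of 4.21% higher and 3.6% lower in number 2, and 28 of the 75 member rows with a mean of at least 10 were higher and 1, SHMT1-203, was lower (limma, adjusted p under 0.05). Of the 28, 5 were at 0 in both libraries numbered 1 and passed that minimum through number 2 alone, among them SHMT2-216 at 128 and 130.2 in number 2. The counts are therefore a description and are not read against the background. Every one of these 29 calls was lost when any 1 library was left out, since no transcript of the whole table was then called. PSAT1 was carried by 1 form: PSAT1-202, with 370 codons, made up 97.9% to 98.5% of the gene in each library. ALDH1L2-201, with 923 codons, made up 80.6% to 95.1% and differed by 3.45 ± 0.12 (SE, log2, adjusted p of 0.0048 by limma). PHGDH divided mainly among PHGDH-208, which was higher by 2.13 ± 0.15 (adjusted p of 0.0113 by limma), the coding PHGDH-202 and the noncoding PHGDH-230. MTHFD2 divided about evenly among MTHFD2-201, MTHFD2-203 and MTHFD2-205, the last annotated for nonsense-mediated decay, and the differences of the 3 lay between 2.25 and 2.41. PSPH-202 rose by 1.00 ± 0.13 and PSPH-210, annotated for decay, by 1.56 ± 0.17 (adjusted p of 0.0274 and 0.0223 by limma). Of the MTHFD1 forms, 4 were followed and none was called. They were the partial MTHFD1-215 at -2.12 ± 0.40, another partial form, MTHFD1-211, at -0.67 ± 0.60, MTHFD1-202 with 1020 codons at -0.42 ± 0.31 and the intron-retaining MTHFD1-210 at 0.20 ± 0.60.

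SHMT2 and MTHFD1L had forms that moved unequally between numbers. SHMT2-201, with 504 codons, was at 2783 and 4124 in controls 1 and 2, and 2219 and 3546 in mimics 1 and 2, a difference of 0.62 ± 0.15 that was not called (adjusted p of 0.0898 by limma). SHMT2-202, with 483 codons and so a shorter coding sequence, was at 1011, 3930, 1172 and 5202 in the same order (controls 1 and 2, mimics 1 and 2) and rose by 2.05 ± 0.17 (adjusted p of 0.0148 by limma). Its share of SHMT2 was 23.9% and 32.0% in control and mimic numbered 1, against 39.0% and 46.4% in those numbered 2. MTHFD1L-211, with 979 codons, was at 588 and 2326 in controls 1 and 2, and 343 and 2155 in mimics 1 and 2 and rose by 2.32 ± 0.29 (adjusted p of 0.0268 by limma). MTHFD1L-212, with 913 codons, was at 784, 589, 971 and 723 in that order and was not called, with -0.42 ± 0.18. MTHFD1L-203, with 978 codons, rose by 1.60 ± 0.17 (adjusted p of 0.0209 by limma). The difference between forms of a gene was not itself tested.

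Promoter sequences from RefSeq (GRCh38.p14), 250 bases before to 50 after an annotated start, were at hand for 6 of the 9 genes. PSPH, SHMT2 and ALDH1L2 were not among them. The windows were searched on both strands for the C/EBP-ATF response element, TGATGNAA, to which ATF4 binds with a partner, and for the CCAAT box, whose 5 letters overlap no match of the former here. MTHFD1L has 4 windows, 1 for each annotated start, and the others 1 each. The same single response element was found in 3 of the 4, which overlap. It lay 129 and 90 bases before their starts and 24 after. No window of the other 5 genes held the response element. Over all 27305 genes with such windows, 4.46% held it in at least 1. A CCAAT box was found in all 6, among them PSAT1 with 3 and SHMT1 with 2, against 39.7% of genes. Windows of 3 genes are printed to set a gene with the response element beside the gene of serine synthesis that moved most and the cytosolic gene that did not move with it; motifs are in capitals, a CCAAT box on the opposite strand reading as ATTGG, and each runs 5′ to 3′ along its gene.
MTHFD1L, chr6:150866236-150866535, plus strand: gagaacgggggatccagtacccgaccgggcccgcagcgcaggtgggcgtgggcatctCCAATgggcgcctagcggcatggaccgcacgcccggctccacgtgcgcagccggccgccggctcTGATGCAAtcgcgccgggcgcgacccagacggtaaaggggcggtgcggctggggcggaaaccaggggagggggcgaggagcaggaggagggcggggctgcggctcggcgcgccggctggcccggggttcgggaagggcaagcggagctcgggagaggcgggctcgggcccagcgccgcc
PSAT1, chr9:78296875-78297174, plus strand: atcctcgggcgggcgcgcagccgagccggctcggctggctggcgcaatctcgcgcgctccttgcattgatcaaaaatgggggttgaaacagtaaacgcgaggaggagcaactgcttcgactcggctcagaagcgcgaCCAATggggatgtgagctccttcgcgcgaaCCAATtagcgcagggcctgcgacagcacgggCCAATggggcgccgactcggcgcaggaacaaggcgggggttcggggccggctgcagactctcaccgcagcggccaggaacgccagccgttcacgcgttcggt
SHMT1, chr17:18363501-18363800, minus strand: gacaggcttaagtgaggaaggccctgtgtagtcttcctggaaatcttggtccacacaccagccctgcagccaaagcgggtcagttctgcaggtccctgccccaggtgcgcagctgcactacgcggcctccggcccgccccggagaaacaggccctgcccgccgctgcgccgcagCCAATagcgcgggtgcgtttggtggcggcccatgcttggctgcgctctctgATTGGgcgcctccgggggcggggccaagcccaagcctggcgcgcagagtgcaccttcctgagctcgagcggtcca
These matches describe letters in a window.

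Genes around the enzymes were read from lists of transport, folate, glycine, serine and methionine genes, and none of them was called between treatments. Their counts between numbers stand against the 26% higher and 24.2% lower of all genes tested, and with so few genes a list nothing particular is read from them. Of 4 folate transport and retention genes tested, 1 was higher in number 2 and 2 were lower. FPGS, which adds glutamates that keep folate in the cell, rose by 0.52 ± 0.11, while GGH, which removes them, fell by 0.86 ± 0.08 and the carrier SLC19A1 by 0.38 ± 0.12 (SE, log2, limma). Of 5 other cytosolic and nuclear folate genes, 2 were higher and 1 lower. The higher ones were GART and ALDH1L1, a cytosolic formyl-folate dehydrogenase that passed the minimum mean of 10 through number 2 alone, with 2.08 and 34.7 in controls 1 and 2, and 4.49 and 33.4 in mimics 1 and 2. TYMS was at 5088 and 806 in controls 1 and 2, and 4727 and 664 in mimics 1 and 2. TYMS makes thymidylate and fell by 2.74 ± 0.11 (adjusted p of 2.3e-07 by limma). GART, an enzyme of purine synthesis that uses formyl-folate, rose by 0.53 ± 0.08, and MTHFS, which returns 5-formyl-folate to use, differed by 0.47 ± 0.19 and was not called (adjusted p of 0.0667 by limma).

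Of the 9 other mitochondrial folate and glycine cleavage genes, 3 were higher, DMGDH by 1.81 ± 0.22, DHFR2 by 0.62 ± 0.16 and MTHFD2L by 0.34 ± 0.10, and 0 were lower. Among 11 genes of serine transport and use, 5 were higher and 4 lower. CTH was at 256 and 5482 in controls 1 and 2, and 268 and 5659 in mimics 1 and 2. CTH, which makes cysteine from cystathionine, rose by 4.41 ± 0.09 and the serine and alanine carrier SLC1A4 by 2.78 ± 0.09. CBS was at 4.16 and 577 in controls 1 and 2, and 27.9 and 772 in mimics 1 and 2. CBS, which joins serine with homocysteine, rose by 5.78 ± 0.63 (adjusted p of 8.2e-05 by limma), with libraries of number 1 near the filter on low values. The methionine cycle showed smaller differences, 4 higher and 3 lower of 7, led by MTRR at 0.71 ± 0.08, BHMT2 at -0.53 ± 0.17 and MAT2B at 0.33 ± 0.09. Between treatments the largest difference in each list was -0.16 ± 0.29 for SLC19A1, -0.19 ± 1.34 for TYMS, 0.21 ± 0.21 for GCSH, a carrier protein of glycine cleavage, 1.45 ± 2.85 for CBS and 0.22 ± 0.38 for BHMT2 (SE, log2), among genes with a mean of at least 50.

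**Figure D5:**
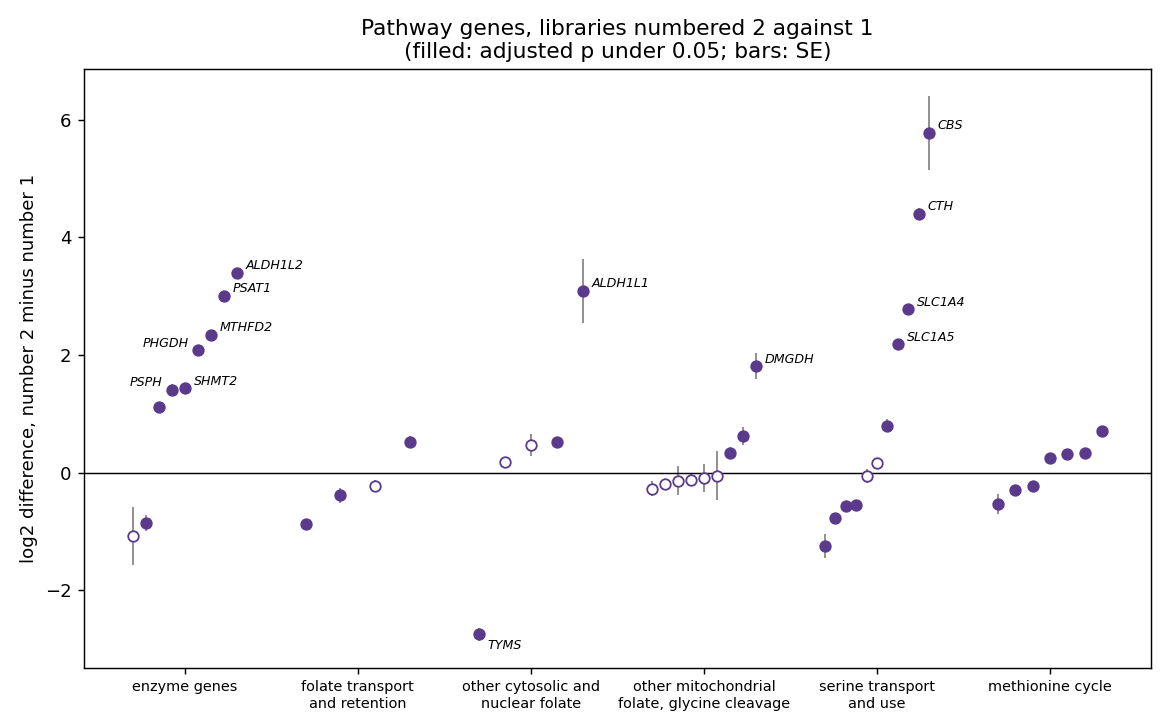
Log2 difference between libraries numbered 2 and 1 with its standard error for the 9 enzyme genes and 5 lists of pathway genes; filled points passed an adjusted p under 0.05 by limma, open points did not. The serine synthesis and mitochondrial enzymes lie between 1.11 and 3.40, TYMS at -2.74 and CTH at 4.41.

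Genes of other programmes, in lists chosen with earlier results of these data known, moved with the number too. Of all genes tested, 26% were higher in number 2 and 24.2% were lower. All 13 of ATF4 and its targets outside the pathway were higher in number 2, with a median of 3.09; ASNS was at 857 and 18173 in controls 1 and 2, and 914 and 17176 in mimics 1 and 2. ATF4 itself rose by 1.31 ± 0.08. All 10 genes of the G1/S phase were lower, with a median of -1.90, and all 8 of the G2/M phase, with a median of -1.85. The summed ATF4 list was 34368 to 35833 in libraries numbered 1 and 140354 to 141517 in those numbered 2, and the summed G2/M list 59894 to 64824 against 15098 to 15877. Their part in the values of the enzyme genes was not tested. In bulk RNA, fewer cells of a kind and less RNA per cell cannot be told apart.

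By Euclidean distance of centred log2 values over the 4 libraries, the gene most like PSAT1 of 11027 protein-coding genes with a mean of at least 100 was SLC7A11, the cystine carrier, at a distance of 0.10, then ANKRD22 at 0.17 and DLGAP1 at 0.17. SLC7A11 was at 1030 and 9806 in controls 1 and 2, and 1129 and 8572 in mimics 1 and 2. SHMT1 had no neighbour as close: GSDMD lay at 0.72, AC112128.1 at 0.73 and ARPC4-TTLL3 at 0.82. With 4 libraries such a likeness is a description of these libraries alone.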

How the data were processed

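Polyadenylated RNA was sequenced in 4 U87 libraries, 2 per treatment. The authors estimated reads per transcript with kallisto and scaled them with DESeq2 on hg38, per the submitters' processing notes, which give no versions. The deposited table holds a normalized signal per transcript, here read as whole reads divided by a size factor: 95.6% to 99.7% of low values fell within 0.1 of a multiple of a step constant in each library. Rows summed to at least 10 recovered reads. Of the rows, 90643 (89.9%) were found in GENCODE v29 (GRCh38), ignoring version suffixes, and were summed per gene. 0 columns of other samples were found.

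Differences were tested two-sided with limma (trend option) on log2(value + 1), for genes or transcripts with a mean of at least 10, with Benjamini-Hochberg adjustment over all of them at 0.05. This scale understates changes of low genes. On the recovered reads, likewise without a block, edgeR called 0 genes and DESeq2 0 between treatments, and DESeq2 called 7409 between numbers. The contrast of numbers was fitted over the same 4 libraries. Intervals cover counting error only.

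The enzyme genes, lists and comparisons were chosen with earlier results of these data known. Named were all 9 enzyme genes; transcripts with the highest mean or at least 20% of their gene in any library; in each pathway list, the 3 genes with the largest difference between numbers and 1 between treatments, of those with a mean of at least 50; and the 3 genes most like PSAT1 and SHMT1. Some pathway genes are not reported here and were left out of the lists. Motifs were searched in RefSeq promoters. Alternatives were other pseudocounts, filters, scalings, tools, blocks and left-out libraries. Python 3.11.15 (matplotlib 3.10.9, scipy 1.17.1, pandas 2.3.3, numpy 2.4.6) and R 4.3.3 (DESeq2 1.42.0, edgeR 4.0.16, limma 3.58.1) were used.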

Additional observations from a re-analysis of the deposited data

How the results depend on the processing

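With 2 libraries per group, the treatment test could pass few differences, because the libraries of a group differed by number. No gene was called between treatments in any fit without a replicate block. With the replicate number as a block, 117 genes were called, and 39 with the replicate block and a GC correction. The labels do not say that a number marks a shared culture. Same-numbered libraries deviated together (r = 0.745). In those fits SHMT1 was called at -1.39 (adjusted p of 3.6e-13 by limma) and -1.33 (adjusted p of 0.00076 by limma), and no transcript was called with the replicate block. Leaving out each library in turn, 5163 to 7942 genes were called between numbers, 0 to 0 transcripts between numbers or treatments, and 0 to 0 genes between treatments. The treatment difference of the mitochondrial to cytosolic ratio then ranged from -1.45 to 1.59 (reversed, at -1.45 without control 1 and -1.42 without mimic 2) and that between numbers from 2.95 to 3.06, since the groups compared then held unequal numbers. For the same reason the treatment difference ranged from -1.14 to 0.97 for PHGDH, -1.57 to 1.54 for PSAT1, -0.70 to 0.77 for PSPH, -0.83 to 0.78 for SHMT2, -0.32 to 0.66 for MTHFD1, -1.22 to 1.20 for MTHFD2, -0.52 to 0.64 for MTHFD1L, -1.70 to 1.76 for ALDH1L2 and -1.16 to 0.56 for SHMT1-203. For SHMT1 it ranged from -2.04 to -0.73. The treatment difference of SHMT2 turned from -0.03 to 0.061 with edgeR, 0.060 with DESeq2 and 0.051 with the replicate block and GC correction, which also gave 0.0034 for PHGDH and -0.00056 for ALDH1L2. All 8 enzyme gene calls between numbers held under the other pseudocounts, filters, scalings and tools run, and SHMT1 was also called between numbers with treatment as a block. The ratios without MTHFD1 and with SHMT2 and SHMT1 alone were added after the data were seen. The last gave 1.14 between treatments.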

Other observations

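Markers of this and other cell types were looked for in the same libraries. Counts between numbers, here and below, stand against the 26% higher and 24.2% lower of all genes tested. Of 9 glioma and mesenchymal markers, S100B had no row, and of the 8 tested, 1 was higher in number 2 and 4 were lower. VIM fell by 1.09 ± 0.10, CD44 by 1.05 ± 0.10, NES by 2.27 ± 0.12 and SOX9 by 1.07 ± 0.12, whereas OLIG2 rose by 2.16 ± 0.16 (SE, log2, limma). SOX2, FABP7 and GFAP were at 29.7 or less and were not called.

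Of 4 neuron markers, RBFOX3 and STMN2 had no row. SYT1, between 420 and 1208, was higher in number 2 by 1.47 ± 0.10, and SNAP25, between 80.2 and 778, was lower by 3.13 ± 0.14 (SE, log2, limma). Of 4 epithelium markers, KRT5 had no row, and the others summed to 72.8 and 72.9 in number 1 against 239 and 215 in number 2. ESRP1 rose by 4.52 ± 0.49 and passed the minimum mean through number 2 alone, EPCAM fell by 1.58 ± 0.38, and CDH1 was not called (SE, log2, limma). The 4 endothelium markers summed to 210 to 419, most of it KDR. Among 4 immune markers CD3E had no row and CD14 was at 4.77 or less. Of 13 mitochondrially encoded genes, 3 were lower in number 2 and 0 higher, with a median of -0.11. The part of any of these genes in the enzyme values was not tested.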
